A study of Mus musculus with 8 samples.

Results

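The complement system of the periosteum was described here through 34 genes, of 32285 genes listed in the count matrices. The rule is a list of symbols of components, regulators and receptors of the cascade and uses no measured value, although the list was drawn up with earlier results of these data known. The cells came from the femoral and tibial periosteum, the fibrous and cell-rich sheath of long bones, of male C57BL/6J mice. Mice in the ND group ate normal chow and those in the HFD group a high-fat diet for 12 weeks, and both groups were 16 weeks old at sampling. The labels give 4 mice per diet, whose left femurs and tibias were digested with collagenase and dispase, but each diet is held as 1 pooled count matrix with no map from cells to mice. Each diet is therefore 1 sample. Diet and library cannot be told apart, no p-value is given, and every interval covers counting error only.

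Complement is a cascade of plasma and tissue proteins that tags particles for uptake, recruits leukocytes and can perforate membranes. It is started by the classical pathway (C1q with the proteases C1r and C1s, then C4 and C2), by the lectin pathway (ficolins and collectins with the MASP proteases) or by the alternative pathway (C3, factor B, factor D and properdin), and the routes meet at C3. C6 and C7 belong to the terminal complex, regulators such as C1 inhibitor, CD55 and CD59 restrain the cascade, and receptors for C3 and C5 fragments sit on leukocytes. Liver is the main source of most plasma components, while C1q is known to come largely from macrophages.

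The ND library held 6314 barcodes with 48558889 UMIs (unique molecular identifiers, counts of captured transcript ends) and the HFD library 6636 barcodes with 49940976 UMIs. A filter on detected genes (over 500, under 8000) and on the mitochondrial share (under 20%) left 6029 ND and 6224 HFD cells with median depths of 4610 and 4823.5 UMIs. The libraries shared 15 barcodes, 14 of them among the kept cells. Clusters were made without the complement genes and named from fixed marker genes; 14 classes were named and 2 clusters were not, and the smallest named classes held 26 to 59 cells per library. Neutrophil-like cells made up 39.9% of ND and 39.1% of HFD cells and B cell-like cells 22.3% and 20.8%, while mesenchymal-like cells, the stroma of the tissue, made up 6.78% and 10.7%. Markers of neutrophils were found in every other class.

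The members together gave 87856 UMIs in ND and 87932 in HFD. At least 50 UMIs over both libraries were found for 29 members and fewer for 5. The 5 below were Cfd (7 UMIs), C6 (5), Cfi (3), C4a (12) and Masp2 (12), so factor D, which starts alternative pathway cleavage, and factor I, which inactivates C3b, were barely detectable at this depth. Levels are given as UMIs per 1000000 UMIs of the class (UPM). They count captured transcript ends and are not divided by gene length. Over both libraries, 10 of the 29 members had their highest level in mesenchymal-like cells, 8 in macrophage-like cells, 4 in endothelial-like cells and 2 in B cell-like cells. Some placements were close. Itgam was at 413 UPM in macrophage-like and 411 in neutrophil-like cells, and Cd55 at 349 in B cell-like and 341 in mesenchymal-like cells. Clu was at 448 in endothelial-like and 420 in mesenchymal-like cells, and Cd46 was placed in endothelial-like cells on few UMIs. Fcnb was highest in granulocyte/monocyte progenitor-like cells, Cfp in monocyte-like cells, Itgax in NK cell-like cells, C5ar2 in neutrophil-like cells and Vtn in pericyte/smooth muscle-like cells. Most Vtn UMIs of that class in HFD came from the same cell, as given below. Only named classes were ranked, so the unnamed clusters are left out of these placements.

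**Figure D1:**
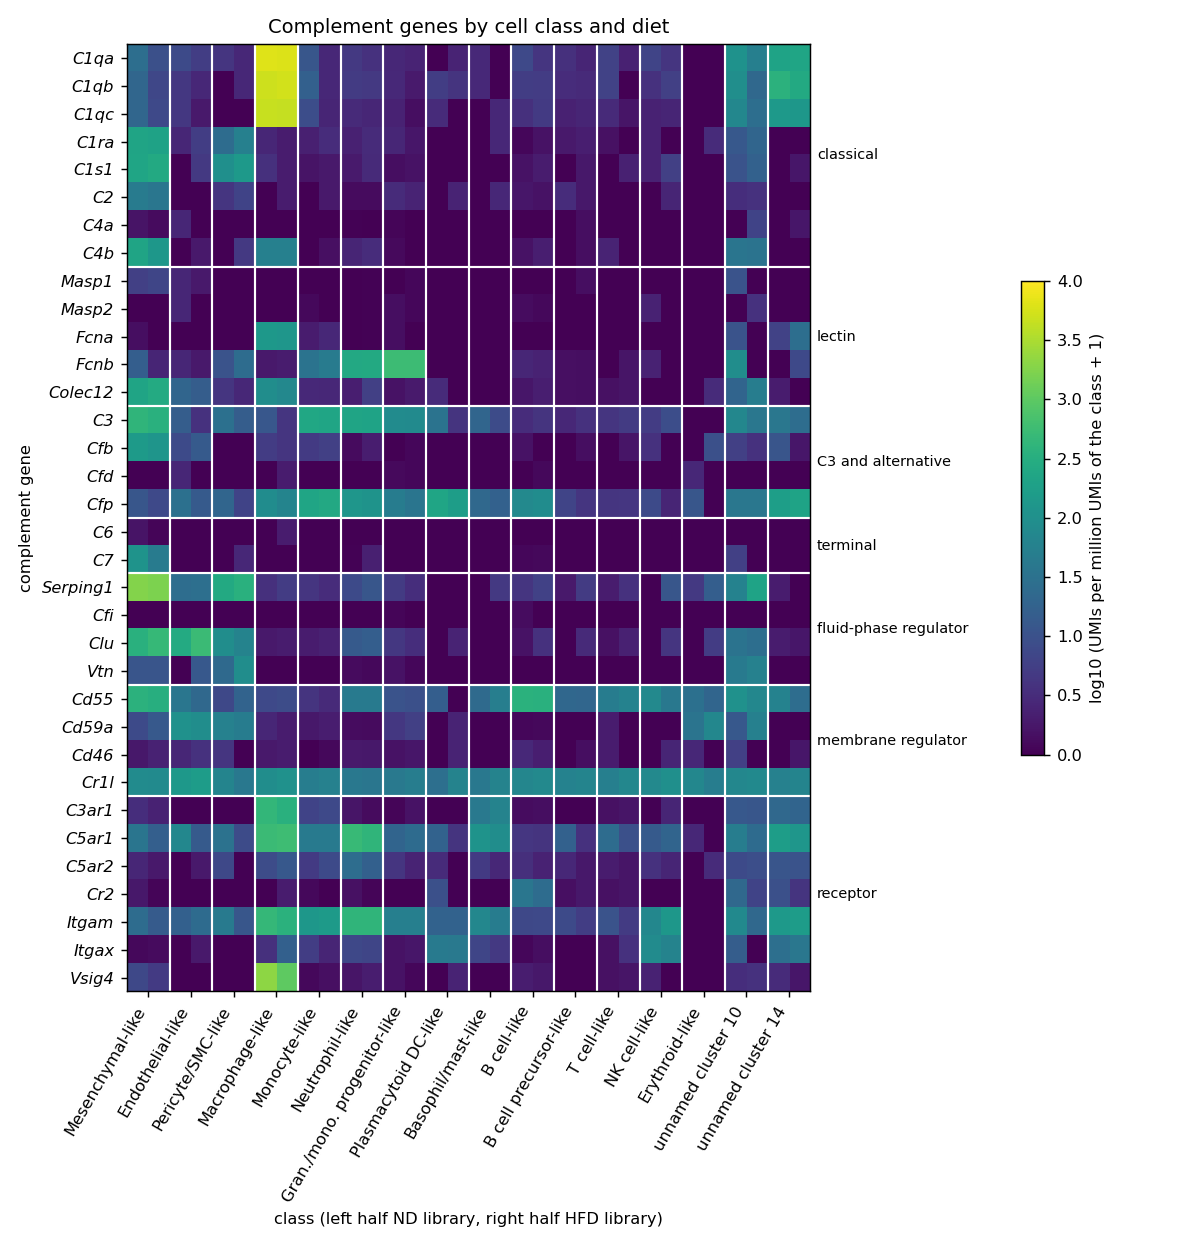
Level of each complement gene (rows) in each class (columns), shown as log10(UPM + 1) by colour, with ND in the left and HFD in the right part of each cell of the grid. The C1q genes and Vsig4 are brightest in macrophage-like cells, whereas Serping1, C1ra, C1s1, C4b and C7 are brightest in mesenchymal-like cells, and both diets show this layout.

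C1q, the recognition molecule of the classical pathway, was measured through the genes of its 3 chains, and its transcripts were concentrated in a small class. The macrophage-like class had 87 cells in ND and 86 in HFD, yet held 92.8% of C1qa, 90.0% of C1qb and 93.7% of C1qc UMIs. C1qa stood at 6377 UPM in ND (95% interval 6234 to 6523) and 6085 in HFD (5930 to 6244). C1qb stood at 4984 in ND and 5385 in HFD, and C1qc at 4666 in ND and 4505 in HFD. The log2 ratios of HFD over ND, -0.07, 0.11 and -0.05, were within the 1.5-fold limit used for calling a difference, and none passed it in the 18 other settings tried. The sign of C1qb held in 15 of those settings, and the lowest C1qa ratio was -0.54, at the clustering resolution of 0.25. Every ND macrophage-like cell (87 of 87) and 85 of 86 HFD cells had UMIs of all 3 chains. C1qa made up 39.8% of C1q UMIs in ND (39.1 to 40.5) and 38.1% in HFD (37.3 to 38.9), and C1qb 31.1% and 33.7%. These shifts are small but larger than counting error.

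The 3 C1q genes lie side by side on chromosome 4, minus strand, with C1qb at chr4:136880129-136886187, C1qc at chr4:136889804-136893065 and C1qa at chr4:136895917-136898803 (GRCm38). Their promoters are shown because these genes were expressed together. RefSeq promoters (GRCm38.p6, 250 bases before to 50 after the start) were at hand for 24 of the 34 members, C1qb and C1qc among them. In C1qc, at chr4:136892865-136893164, capitals mark a PU.1-type ETS motif (GAGGAAG or, as here, its other strand CTTCCTC), which begins 194 bases before the start. In C1qb, at chr4:136886151-136886450, none of the 6 motifs searched was found. Both are written on the minus strand.
C1qc: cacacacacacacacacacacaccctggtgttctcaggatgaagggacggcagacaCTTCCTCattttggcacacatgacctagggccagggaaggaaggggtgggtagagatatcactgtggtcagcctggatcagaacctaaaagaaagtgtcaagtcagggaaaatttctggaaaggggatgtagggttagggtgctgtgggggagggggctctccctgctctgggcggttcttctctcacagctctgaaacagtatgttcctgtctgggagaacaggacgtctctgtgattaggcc
C1qb: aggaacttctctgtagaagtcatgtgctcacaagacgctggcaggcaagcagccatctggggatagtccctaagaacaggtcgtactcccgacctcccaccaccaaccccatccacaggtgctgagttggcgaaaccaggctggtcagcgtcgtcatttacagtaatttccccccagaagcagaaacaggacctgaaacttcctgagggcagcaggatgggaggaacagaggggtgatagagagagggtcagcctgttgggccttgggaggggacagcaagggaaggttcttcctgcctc
The PU.1-type motif occurred in 13.4% of all 32544 promoters of that length and in 4 of the 24 members (C1qc, C5ar2, Fcna and Itgam). C1s1 and C5ar2 have 2 starts each. Here and below a member counts if any of its promoters holds the motif, whereas the share over all is per promoter.

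Outside macrophage-like cells, C1q UMIs sat in few cells. In mesenchymal-like cells C1qa was at 27.2 UPM in ND and 8.60 in HFD, and 3 ND cells and 1 HFD cell with over 20 C1q UMIs held 93.4% and 85.1% of the C1q UMIs of that class. All 4 cells were among the 5% of cells with the highest doublet score, a measure of resemblance to mixtures of 2 cells. In monocyte-like cells C1qa was at 10.7 UPM in ND and 1.80 in HFD, and C1qb at 15.9 and 1.80, with 84.3% and 84.2% of the ND UMIs in 1 cell. B cell-like cells, which should lack C1q, had C1qa UMIs in 2.38% of ND and 1.24% of HFD cells at median depths of 3783 and 3667 UMIs, against 3.18% and 1.94% in mesenchymal-like cells at 10666 and 9556. The next highest levels of C1q were in unnamed cluster 14 (116 and 140 cells), with C1qa at 208 UPM in ND and 224 in HFD and C1qb at 376 and 272. There 9 ND and 7 HFD cells held 91.4% and 94.8% of the C1q UMIs, and C1qb made up 51.9% of them in ND and 43.4% in HFD, against 31.1% and 33.7% in macrophage-like cells. The chain mixture thus differed from that of the macrophage-like class by more than counting error, although it rests on few cells. Of the cells in cluster 14, 35.3% in ND and 21.4% in HFD were among the highest doublet scores.

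The proteases of the C1 complex and the next components of the classical pathway were mesenchymal. C1ra (C1r) was at 212 UPM in ND and 199 in HFD and was found in 71.9% and 61.7% of mesenchymal-like cells, against 0.0742% of ND B cell-like cells. C1s1 (C1s) was at 223 in ND and 264 in HFD. C1s1 made up 51.2% of the C1ra and C1s1 UMIs in ND (49.1 to 53.4) and 57.0% in HFD (55.3 to 58.8), a shift larger than counting error, and 25.3% of the 50-base stretches at the transcript end of C1s1 also occur in C1s2. In pericyte/smooth muscle-like cells C1s1 outweighed C1ra more clearly, with 79.5% in ND and 72.7% in HFD. C2, the protease that joins C4b in the C3 convertase, was at 45.6 UPM in ND and 36.8 in HFD. The gene Gm20547 overlaps C2 and holds 22.7% of its end sequence.

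C4b, the mouse gene of complement C4, was lower in the HFD library. It stood at 218 UPM in ND (205 to 231) and 132 in HFD (124 to 141), a log2 ratio of -0.72 (-0.85 to -0.59). The share of mesenchymal-like cells with a C4b UMI was 24.4% in ND and 18.1% in HFD, and 11.7% and 7.52% after each cell was thinned to 1000 UMIs. B cell-like cells held a C4b UMI in 0.223% and 0.464%. On thinned cells the log2 ratio was -0.49, below the 1.5-fold limit, while it stayed past that limit in 19 of the 20 settings tried. C4b shares 46.4% of its end sequence with C4a, whose own count was 12 UMIs, so reads of C4a and C4b may not be fully separated. Macrophage-like cells were the second highest class for C4b, at 53.3 UPM in ND and 54.7 in HFD.

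The lectin pathway was split between myeloid and stromal cells. Fcnb (ficolin B), a myeloid pattern recognition protein, reached 551 UPM in ND and 554 in HFD in granulocyte/monocyte progenitor-like cells. Its level in neutrophil-like cells was 257 and 267. Fcna (ficolin A) was a macrophage gene, at 136 and 125 UPM, with UMIs in 64.4% of ND and 50% of HFD macrophage-like cells and in no ND B cell-like cell. It was also found in unnamed cluster 14, at 5.20 and 27.3 UPM. Colec12, a membrane scavenger collectin, was highest in mesenchymal-like cells, at 220 in ND and 274 in HFD, and reached 91.4 and 72.5 in macrophage-like cells. Of the proteases, Masp1 was low, at 4.81 and 5.73 UPM in mesenchymal-like cells, and Masp2 was represented by 12 UMIs in all.

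C3, the component on which all routes converge, was expressed in both stromal and myeloid cells. Its level was 413 UPM in ND (395 to 432) and 346 in HFD (333 to 360) in mesenchymal-like cells, 239 and 223 in monocyte-like cells and 213 and 205 in neutrophil-like cells. By total count neutrophil-like cells held 46.9% of C3 UMIs, more than the 29.8% of mesenchymal-like cells. In B cell-like cells C3 was at 2.25 and 2.97. None of these log2 ratios passed the 1.5-fold limit, the mesenchymal one being -0.25. The RefSeq promoter of C3 (chr17:57228087-57228386, minus strand, GRCm38.p6) is shown because C3 was high in cell types of different origin. Capitals mark a C/EBP motif (TTGCNNAA or TTNNGCAA), which begins 45 bases before the start, and a TATA motif (TATAAA or TTTATA), which begins 15 bases after it.
C3: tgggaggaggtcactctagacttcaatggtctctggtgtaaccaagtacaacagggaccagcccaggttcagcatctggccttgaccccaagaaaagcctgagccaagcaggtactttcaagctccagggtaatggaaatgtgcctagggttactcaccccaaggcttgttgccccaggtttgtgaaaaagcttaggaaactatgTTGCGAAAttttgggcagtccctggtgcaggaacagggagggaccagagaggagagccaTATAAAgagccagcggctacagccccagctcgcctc
A C/EBP motif was found in 10.8% of all promoters and in 5 of the 24 members (C1ra, C1s1, C3, C5ar2 and Fcnb). A TATA motif was found in 13.6% of all promoters and in 4 of the 24 (C3, C3ar1, C7 and Vtn).

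Cfb (factor B), which pairs with C3b in the alternative convertase, was a mesenchymal gene at 152 UPM in ND and 119 in HFD, with 93.1% of its UMIs in that class. Because 61.0% of its end sequence occurs in the overlapping gene Gm20547, reads at this locus may have been set aside or shared. Cfp (properdin), the stabiliser of that convertase, was found in leukocytes instead. It stood at 226 and 257 UPM in monocyte-like cells, 224 and 170 in plasmacytoid dendritic-like cells, 126 and 112 in neutrophil-like cells and 76.4 and 86.4 in B cell-like cells. Within the B cell-like class Cfp was concentrated in the largest cluster, at 127 and 156 UPM, against 9.78 and 5.05 in the next.

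C7, which inserts into the membrane during assembly of the terminal complex, showed the largest difference between the libraries among the members that are mainly mesenchymal. Its level was 113 UPM in ND (104 to 123, 541 UMIs) and 44.4 in HFD (39.6 to 49.7, 310 UMIs), a log2 ratio of -1.35 (-1.55 to -1.14), so C7 was 2.54-fold lower in HFD. A C7 UMI was present in 25.2% of ND and 12.7% of HFD mesenchymal-like cells, and in 9.05% and 3.16% of thinned cells. Among B cell-like cells the share was 0.0742% and 0.0773%, and T cell-like cells had no C7 UMI. In mesenchymal-like cells with a C7 UMI the level was 405 UPM in ND and 326 in HFD. A cell counts as positive from 1 UMI, so a lower level also lowers the number of positive cells. These values therefore cannot separate the share of positive cells from the level in them. Mesenchymal-like cells held 96.9% of C7 UMIs, and the ratio stayed past 1.5-fold in all 20 settings tried, from -1.74 to -1.23. C6, the preceding component, gave 5 UMIs in all.

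The C7 promoter (chr15:5063724-5064023, minus strand, GRCm38.p6) is shown because, among the members that are mainly mesenchymal, the C7 level differed most between the libraries. Capitals mark a gamma-activated sequence (TTCNNNGAA), the palindromic motif of STAT factors, which begins 164 bases before the start, and a TATA motif on the other strand (TTTATA), which begins 6 bases before it.
C7: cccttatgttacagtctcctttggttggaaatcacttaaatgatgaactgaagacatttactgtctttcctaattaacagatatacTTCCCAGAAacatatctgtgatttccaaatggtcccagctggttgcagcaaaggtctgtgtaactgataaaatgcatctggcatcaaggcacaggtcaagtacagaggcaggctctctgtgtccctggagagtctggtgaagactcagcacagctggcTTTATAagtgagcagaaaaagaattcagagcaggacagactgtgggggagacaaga
The gamma-activated sequence was present in 8.33% of all promoters and in 4 of the 24 members (C1ra, C7, Masp2 and Vtn). An AP-1 motif (TGANTCA) was found in 2 of the 24 against 7.79% of all promoters, and an interferon-stimulated response element in 3 against 3.45%.

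C7-positive mesenchymal-like cells were higher in several other members and lower in some. In cells with a C7 UMI, over both libraries, C3 was at 1051 UPM against 210 in cells without, C4b at 452 against 98.2, Cfb at 261 against 101 and Serping1 at 3058 against 1353. Members that were lower included Clu (87.0 against 501), Colec12 (190 against 267) and Cd55 (290 against 354). C7-positive cells were also higher in Pi16 (1254 against 403), a marker of universal fibroblasts. The same held for Cxcl14 (947 against 360) and Penk (306 against 111), markers used here for the fibroblasts named after Ccl11 and Col15a1. C7 was found in both kinds of fibroblast-like cells, as given below. C7-positive cells were lower in Bglap (0.874 against 1178) and Postn (22.7 against 978), genes of osteoblasts and of the osteogenic periosteum. C2 was at 61.6 against 35.3. Cells with a C7 UMI were slightly deeper, with a median of 11715 UMIs against 10402.5 in ND and 10747 against 9343 in HFD.

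**Figure D2:**
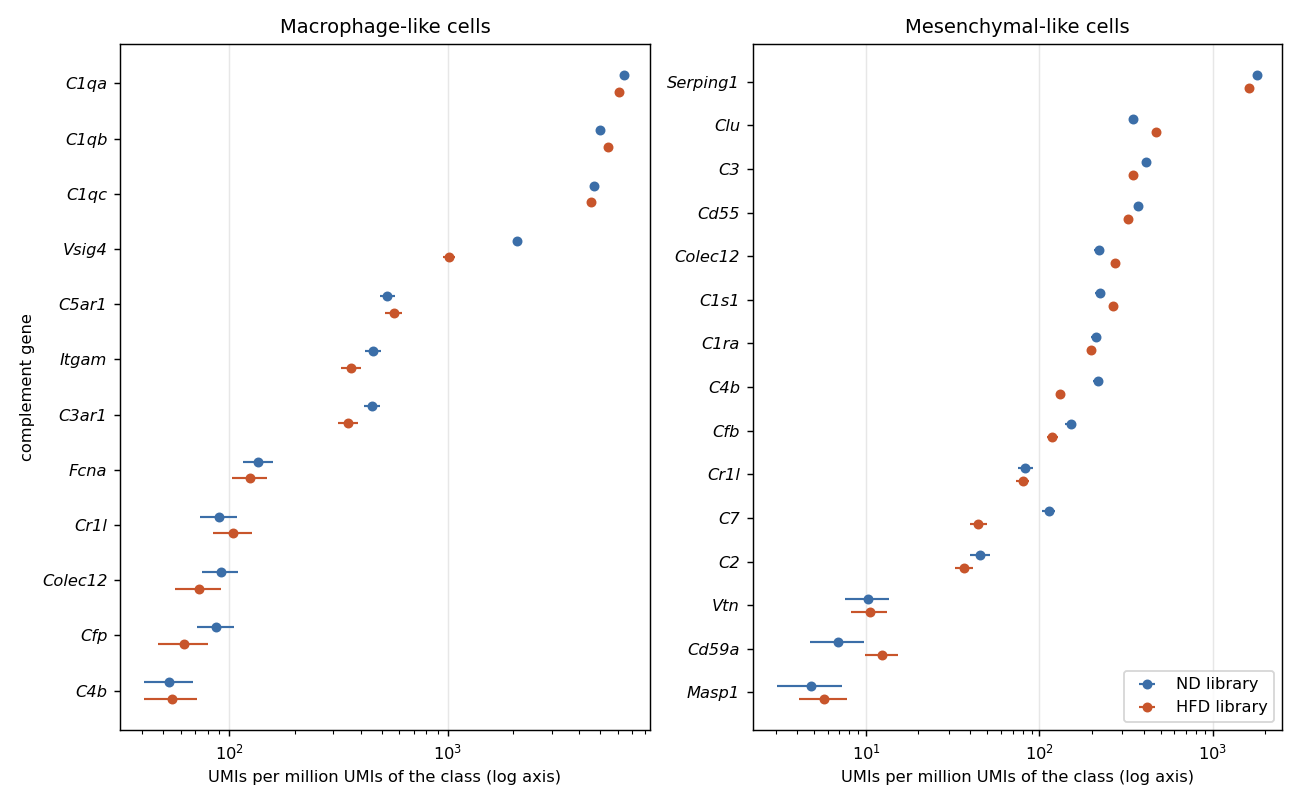
Levels (UPM, log axis) of the complement genes in macrophage-like (left) and mesenchymal-like (right) cells, with ND and HFD as separate points and bars giving exact Poisson 95% intervals. Vsig4 in macrophage-like cells, and C4b and C7 in mesenchymal-like cells, have ND points to the right of HFD points with intervals that do not overlap. Intervals also do not overlap for some genes within the 1.5-fold limit, such as C3 and Serping1 in mesenchymal-like cells.

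Serping1, which encodes C1 inhibitor, was the member with the most UMIs in mesenchymal-like cells. It stood at 1795 UPM in ND (1757 to 1833) and 1609 in HFD (1579 to 1639) and was found in 94.4% and 90.9% of mesenchymal-like cells. B cell-like cells had a Serping1 UMI in 1.19% and 1.70%. Pericyte/smooth muscle-like cells were next, at 269 and 344 UPM. The mesenchymal log2 ratio of -0.16 was within the 1.5-fold limit.

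Clu (clusterin), an extracellular chaperone that also blocks the terminal complex, had its highest level among the named classes, over both libraries, in endothelial-like cells. There it was at 448 UPM, against 420 in mesenchymal-like cells, which were higher in ND alone and held 4945 of 6337 Clu UMIs. At a finer resolution the mesenchymal signal was concentrated in few chondrocyte-like cells, at levels far above that of the endothelial-like class, as given below. In endothelial-like cells Clu was higher in the HFD library. It was at 277 UPM in ND (236 to 324) and 536 in HFD (494 to 580), a log2 ratio of 0.95 (0.70 to 1.21). The share of endothelial-like cells with a Clu UMI was 24.8% and 21.5%, against 0.223% of ND B cell-like cells, and at least 3 UMIs were found in 22 of 117 ND and 37 of 233 HFD cells. In those cells the level was 950 UPM in ND and 1872 in HFD, at median depths of 5853.5 and 7336 UMIs. They were high in Cytl1 (692 UPM against 4.86 in the rest), Mgp (3927 against 199), Gkn3 (310 against 2.43) and Sema3g (458 against 52.7), the last a marker of arterial endothelium. They were low in Car4 (0 against 330) and Gpihbp1 (190 against 1744), which mark capillaries. Ccl21a (0 against 3175) and Mmrn1 (0 against 135), genes of lymphatic endothelium, were absent from them. They were also higher in the neutrophil stefin genes Cstdc5 (179 against 0) and Stfa2 (122 against 0) and in C5ar1 (61.2 against 20.3). Their summed profile thus held neutrophil genes beside arterial ones. How many of these cells carried the neutrophil genes was not examined. When each cell had the same weight the log2 ratio was 0.27, and on thinned cells 0.21, both within the 1.5-fold limit.

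In mesenchymal-like cells Clu was at 344 UPM in ND and 472 in HFD, and 15.7% and 16.7% of its UMIs came from 1 cell in each library. Vtn (vitronectin), another inhibitor of the terminal complex, was at 22.2 UPM in ND and 90.5 in HFD in pericyte/smooth muscle-like cells, but 82.4% of the 51 HFD UMIs came from 1 cell. In mesenchymal-like cells Vtn was at 10.2 and 10.5, and in unnamed cluster 10, whose cells are shallow, at 42.2 and 57.0.

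The membrane regulators were spread more widely. Cd55 (decay accelerating factor), which dissociates the C3 convertases, was at 352 and 345 UPM in B cell-like cells and at 369 and 322 in mesenchymal-like cells. Among the B cell-like clusters it varied from 119 in ND and 150 in HFD to 784 and 726, more than between the diets. In fibroblast-like cells made at a finer resolution, Cd55 was at 955 and 1309 UPM in those marked by Pi16 and Dpp4 and at 177 and 185 in those marked by Ccl11 and Col15a1. Cr1l (Crry), the rodent regulator of C3 convertases, was detected in all classes. It ranged from 27.7 UPM in ND plasmacytoid dendritic-like cells to 164 in HFD endothelial-like cells, with 82.8 and 80.0 in mesenchymal-like cells. Of its end sequence 22.4% also occurs in Crry-ps and Gm49375. Cd59a, which blocks the final pore, was highest in endothelial-like cells at 104 and 89.3 UPM. In granulocyte/monocyte progenitor-like cells it was at 3.45 and 4.64. Cd46 gave 83 UMIs in all and no class stood out, with 0.876 and 0.821 UPM in neutrophil-like cells and 1.87 and 1.19 in B cell-like cells.

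The anaphylatoxin receptors and Itgam were highest in myeloid classes, whereas Cr2 was highest in B cell-like and Itgax in NK cell-like cells. C5ar1, the receptor for C5a, was at 530 UPM in ND and 566 in HFD in macrophage-like cells and at 500 and 408 in neutrophil-like cells, where 89.6% and 86.1% of cells had a UMI, against 1.11% and 0.927% of B cell-like cells. Its log2 ratio was 0.09 in the former and -0.29 in the latter. C3ar1, the receptor for C3a, was a macrophage gene at 451 and 351, with 80.3% of its UMIs in that class. C5ar2, the second C5a receptor, was at 25.5 UPM in neutrophil-like cells in ND (23.1 to 28.1) and 15.7 in HFD (13.9 to 17.7), a log2 ratio of -0.70 (-0.93 to -0.47). Of its end sequence 31.3% occurs elsewhere in the annotated transcripts. Itgam (the alpha chain of complement receptor 3) was at 455 and 361 in macrophage-like cells and 414 and 409 in neutrophil-like cells. The gene Gm49368 overlaps Itgam and holds 13.3% of its end sequence. Itgax, the alpha chain of complement receptor 4, was at 85.4 and 60.9 in NK cell-like cells, 28.1 and 37.6 in unnamed cluster 14 and 6.44 and 5.80 in neutrophil-like cells. Cr2, the B cell receptor for C3d, was at 36.0 UPM in ND (31.1 to 41.4) and 25 in HFD (20.8 to 29.7) in B cell-like cells, a log2 ratio of -0.52, and at 128 and 146 in their smallest cluster.

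Vsig4, a macrophage receptor for C3b and iC3b, was the member with the largest gap between the libraries in macrophage-like cells. It was at 2083 UPM in ND (2001 to 2167, 2462 UMIs) and 1016 in HFD (953 to 1083, 967 UMIs), a log2 ratio of -1.03 (-1.14 to -0.93). The share of macrophage-like cells with a Vsig4 UMI was 49.4% in ND and 46.5% in HFD, while B cell-like cells had one in 0.445% and 0.309%. At least 5 Vsig4 UMIs were found in 41 of 87 ND cells and 32 of 86 HFD cells, and in those cells the level was 3780 in ND and 2467 in HFD. The share of such cells had overlapping counting intervals in ND (36.3% to 58.1%) and HFD (27.0% to 48.3%). Their median depths were 14493 UMIs in ND and 11530.5 in HFD, and Vsig4 in the other cells was at 9.40 and 33.5 UPM. Because the cells are chosen by their Vsig4 UMIs, a lower level also lowers their number. These values therefore cannot separate the share of such cells from the level in them. Over both libraries the cells with at least 5 Vsig4 UMIs were also higher than the rest in Lyve1 (2642 UPM against 1225), Sparc (1371 against 285), Fcna (164 against 100) and Colec12 (122 against 46.4). They were lower in Cd74 (25.1 against 3592) and H2-Aa (2.90 against 968), genes of MHC class II presentation, and similar in C1qa (6656 against 5862). The log2 ratio of Vsig4 was past 1.5-fold in all 18 settings tried, from -1.54 to -0.85. The neutrophil marker sum in macrophage-like cells was 13595 in ND and 1528 in HFD, and its part in the ratio was not tested; without the 5% highest doublet scores the ratio was -1.11.

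To compare the diets, a member with at least 50 UMIs in a class was called where its level differed by at least 1.5-fold, and the share of all genes called in the same class is the background. In macrophage-like cells 12 members could be compared, of which 0 were called higher (background 5.77%) and 1, Vsig4, lower (5.22%). In mesenchymal-like cells 23 could be compared. Cd59a was called higher (5.4% of 10781 genes), at 6.90 UPM in ND and 12.3 in HFD. The 10 called lower (background 4.01%) were C4b and C7, described above, and C1qa, C1qb, C1qc, Fcnb, Cfp, C5ar1, Itgam and Vsig4, whose mesenchymal levels were under 10% of those in their highest class. Of the 15 members whose level reached at least 10% of their highest class, 1 was called higher and 2 lower, with a median log2 ratio of -0.09 against 0.05 for all genes.

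Leaving out the 5% of cells with the highest doublet score was a setting chosen after seeing the data. It reduced the mesenchymal calls from 11 of 23 members with enough UMIs to 4 of 17, namely C4b, C7, Cd59a and C5ar1. The share of all genes called in this setting is not given. C1qb (-0.68), C1qc (-2.55) and Cfp (-0.83) still had log2 ratios past the limit but under 50 UMIs, and C1qa was at -0.28 and Vsig4 at 0.54. Of the 58 mesenchymal Vsig4 UMIs, 30 came from 1 ND cell and 23 from 1 HFD cell. Both cells were left out in this setting, so the Vsig4 value rests on few UMIs. Itgam then had a log2 ratio of 0.069 in place of -0.91 and Fcnb one of 0.46 in place of -3.18, while C7 was at -1.44 and C4b at -0.83. The summed level of the 10 neutrophil markers in mesenchymal-like cells was 19521 UPM in ND and 9145 in HFD, 2.13-fold lower, with no marker at 0 in either library, while that of the 10 macrophage markers was 311 and 307 UPM. The part of these cells and of the neutrophil marker sum in the calls was not tested.

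**Figure D3:**
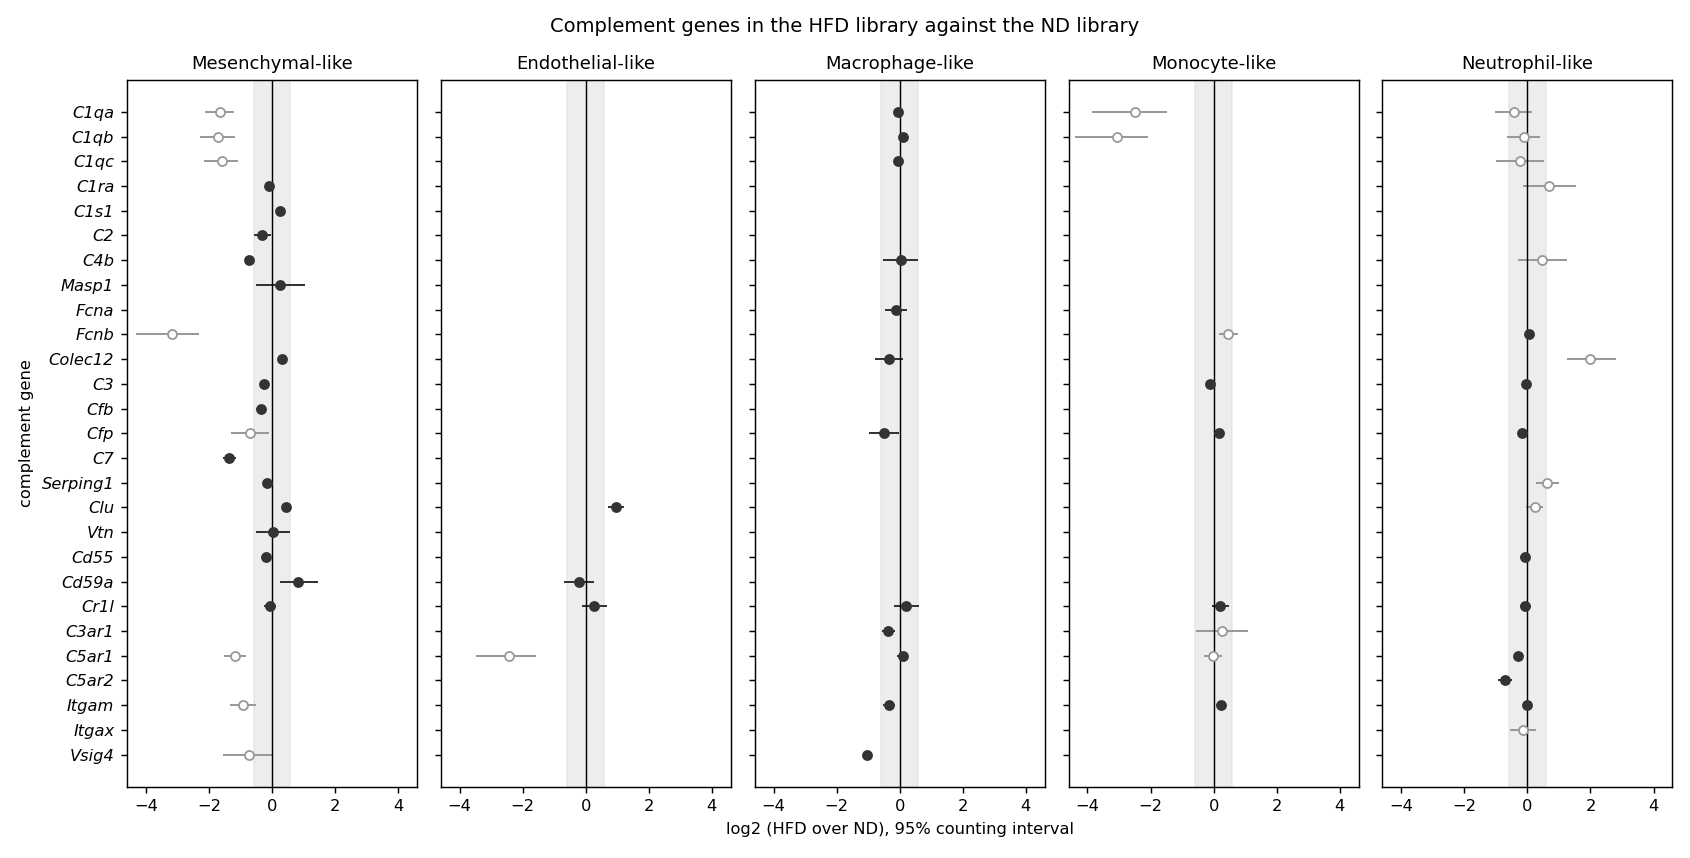
Log2 ratio of HFD over ND of the members in 5 classes, with bars for the 95% counting interval, a grey band for ratios within 1.5-fold and open points for genes whose level is under 10% of that in their highest class. In mesenchymal-like cells most points far below the band are open, while C7 and C4b are filled.

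In neutrophil-like cells 17 members could be compared. Serping1, C1ra and Colec12 were called higher (background 2.02%) and C5ar2 lower (5.51%). The 3 higher ones are mesenchymal genes at low levels here: Serping1 was at 6.82 UPM in ND and 10.6 in HFD, C1ra at 1.31 and 2.11 and Colec12 at 1.19 and 4.75. The summed level of the 8 mesenchymal markers in neutrophil-like cells was 142 UPM in ND and 240 in HFD, and its part in these ratios was not tested. In endothelial-like cells, of 4 members compared, Clu was called higher (background 5.92%) and C5ar1 lower (5.05%), at 69.3 UPM in ND and 12.4 in HFD, in 6.84% and 3.43% of cells, beside neutrophil marker sums of 17170 and 14812. In monocyte-like cells 2 of 9 members were called lower (background 4.2%), C1qa and C1qb, both carried by 1 ND cell as given above. None of the 9 was called higher (2.76%). Cfp, highest in this class, had a log2 ratio of 0.19. The counting intervals of C1ra in neutrophil-like and of Vsig4 in mesenchymal-like cells include no difference.

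The smaller classes held few members with enough UMIs. In pericyte/smooth muscle-like cells Vtn was called higher (background 6.37%) and Clu lower (7.07%), at 91.9 UPM in ND and 60.4 in HFD, the latter with an interval that includes no difference. Most HFD Vtn UMIs there came from the same cell, as given above. Cr1l was called higher in plasmacytoid dendritic-like cells (27.7 and 59.6 UPM, background 6.81%), and Cr1l and C3ar1 in basophil/mast-like cells (7.64%), where both counting intervals include no difference. Cd59a was called higher in erythroid-like cells (33.9 and 69.0 UPM, 6.19%), which had 33 and 26 cells and a mesenchymal marker sum of 19.6 in ND and 1735 in HFD. In NK cell-like cells Itgam was called higher (70.3 and 131 UPM, 5.83%) and Cd55 lower (74.4 and 39.0, 3.94%). C1qa was called lower in B cell-like cells (6.74 and 3.17 UPM, 3.62%) and C5ar1 in T cell-like cells (25.1 and 8.63, 4.19%), both far below the level in their own cell types. In unnamed cluster 10, a cluster of low depth, Serping1 was called higher (12%) and C1qa lower (13.7%), and in unnamed cluster 14 Cd55 was called lower (58.3 and 25.8 UPM, 8.63%). Fcnb, the highest member of the granulocyte/monocyte progenitor-like class, had a log2 ratio of 0.01.

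Among mesenchymal-like cells, C3, C4b, C7 and Serping1 differed more between subclusters than between diets. The Ccl11/Col15a1 fibroblast-like subcluster held 206 ND and 322 HFD cells, the tenocyte-like one 98 and 160, the osteoblast-like one 60 and 128 and unnamed subcluster 3 41 and 45. C3 was at 731 UPM in ND and 670 in HFD in the fibroblast-like cells, against 69.0 and 60.9 in tenocyte-like cells. C4b (403 and 262) and C7 (195 and 86.6) were likewise highest in the fibroblast-like cells, and the lower HFD levels were found there, with log2 ratios of -0.62 and -1.17. Serping1 followed the order fibroblast-like (2439 and 2165), tenocyte-like (1394 and 1626) and osteoblast-like (791 and 607). C2 and Cfb had another layout: C2 was highest in osteoblast-like cells in ND (88.3, against 46.3 in HFD) and Cfb in tenocyte-like cells (248 and 177). Colec12 was highest of these 3 in osteoblast-like cells, at 390 and 419. Unnamed subcluster 3 had a neutrophil marker sum of 103585 in ND and 62442 in HFD, and 45.3% of its cells were among the highest doublet scores. In the tenocyte-like subcluster that sum was 11798.5 in ND and 1882 in HFD.

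The difference in C7 was found in both kinds of fibroblast-like cells at the finer resolution of 0.5, a setting chosen after seeing the data. C7 was at 205 UPM in ND and 101 in HFD in the cells marked by Ccl11 and Col15a1 and at 179 and 68.2 in those marked by Pi16 and Dpp4. C4b was at 443 and 303 in the former and 340 and 176 in the latter. The mesenchymal Clu signal was concentrated in 7 ND and 15 HFD chondrocyte-like cells, at 11685 and 7405 UPM, which at the coarser resolution were in unnamed subcluster 3. Cfb was highest at this resolution in cells marked by Postn (274 and 212), which numbered 89 in ND and 123 in HFD. The tenocyte-like subcluster then held 8 ND and 37 HFD cells, with neutrophil marker sums of 103051 and 887. At the coarser resolution the tenocyte-like subcluster held 98 and 160 cells. By these sizes, the high Cfb levels at both resolutions may come largely from the same cells. With equal weights for the subclusters in both diets, the C7 log2 ratio was -1.23.

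**Figure D4:**
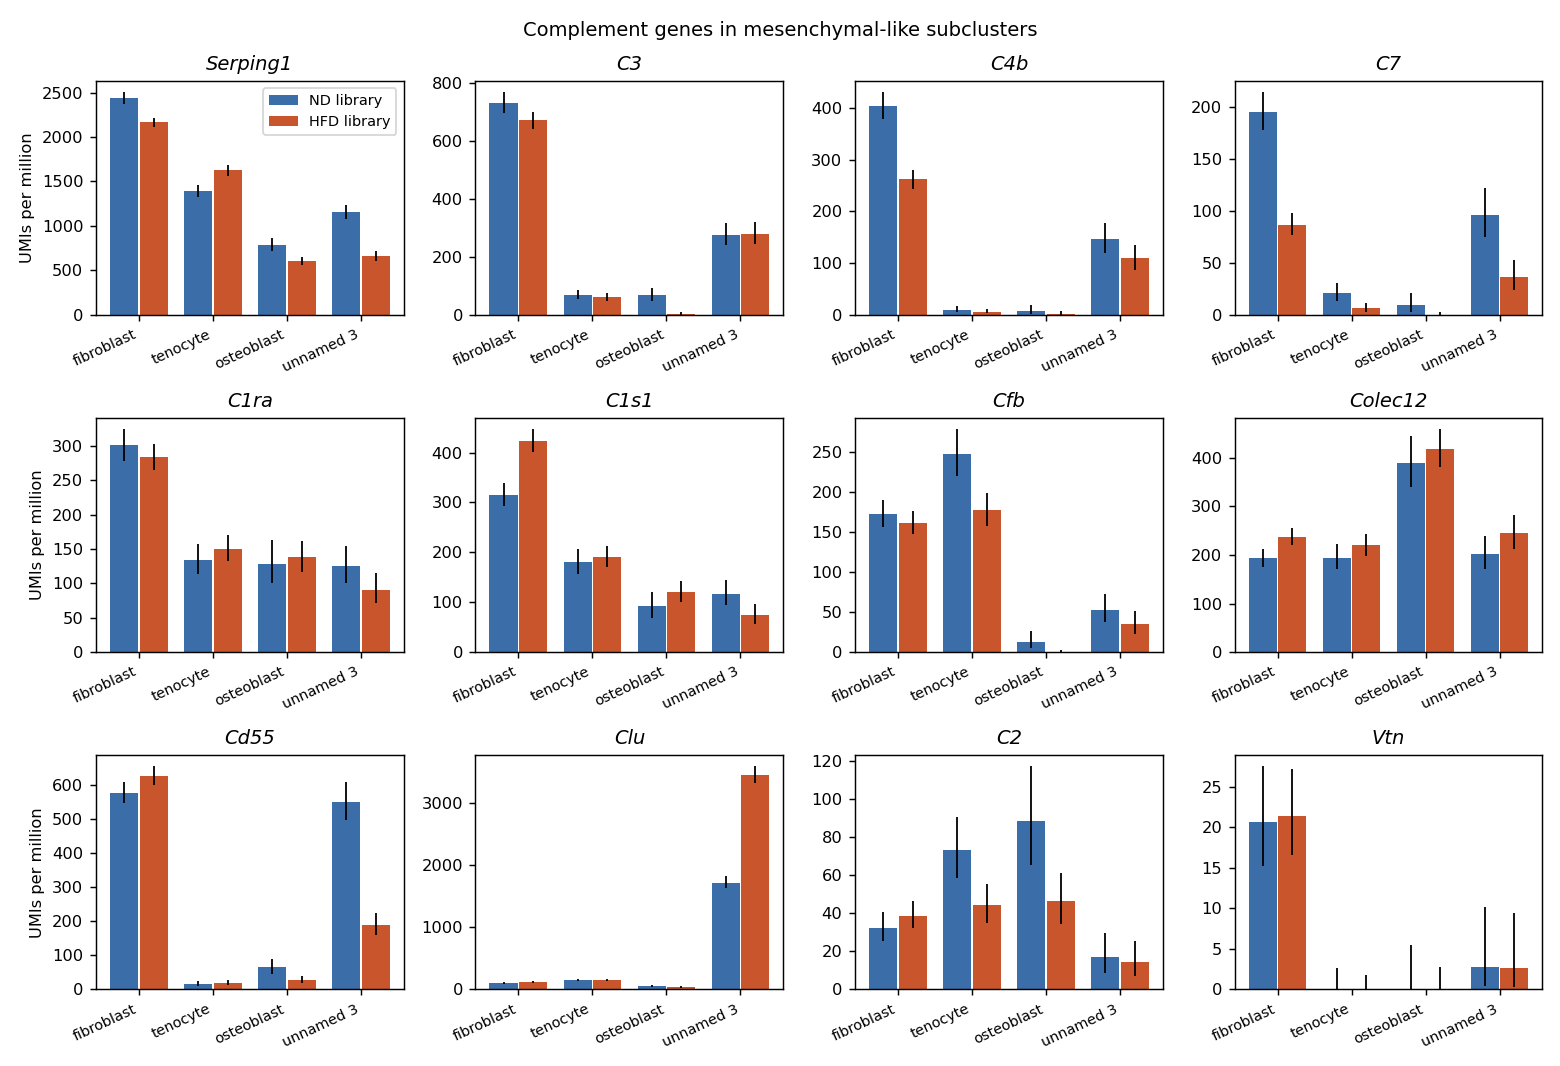
Level (UPM) of 12 complement genes in the fibroblast-like, tenocyte-like and osteoblast-like subclusters and in unnamed subcluster 3, with 1 bar per diet and exact Poisson 95% intervals. C3, C4b and C7 are highest in the fibroblast-like cells, and the HFD bars of C4b and C7 are lower there.

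Neutrophil-like cells formed 6 clusters that differed in Camp, a secondary granule gene of immature neutrophils, from 65454 UPM in cluster 13 to 246 in cluster 2. Fcnb was at 955 UPM in ND and 935 in HFD in cluster 13 and at 1.31 and 2.48 in cluster 2. C3 was at 346 and 345 in cluster 13 and at 95.5 and 83.6 in cluster 2. C5ar1 took the opposite course, from 144 and 117 in cluster 13 to 1083 and 912 in cluster 2, and C5ar2 from 11.5 and 5.89 to 62.1 and 47.2. C5ar1 was therefore highest where Camp was lowest, whereas C5ar2 was also high in cluster 18, at 54.9 (51 UMIs) and 98.4 (7 UMIs). Itgax was found in cluster 2 (45.1 and 56.3) and was under 10 in every other cluster, whereas Itgam was highest in clusters 4 and 5 (556 and 549, and 541 and 482). C5ar1 was lower in HFD in 5 of the 6 clusters, all but cluster 18, which held 172 ND and 18 HFD cells. With equal weights for the clusters in both diets the C5ar2 log2 ratio was -0.35, within the 1.5-fold limit.

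**Figure D5:**
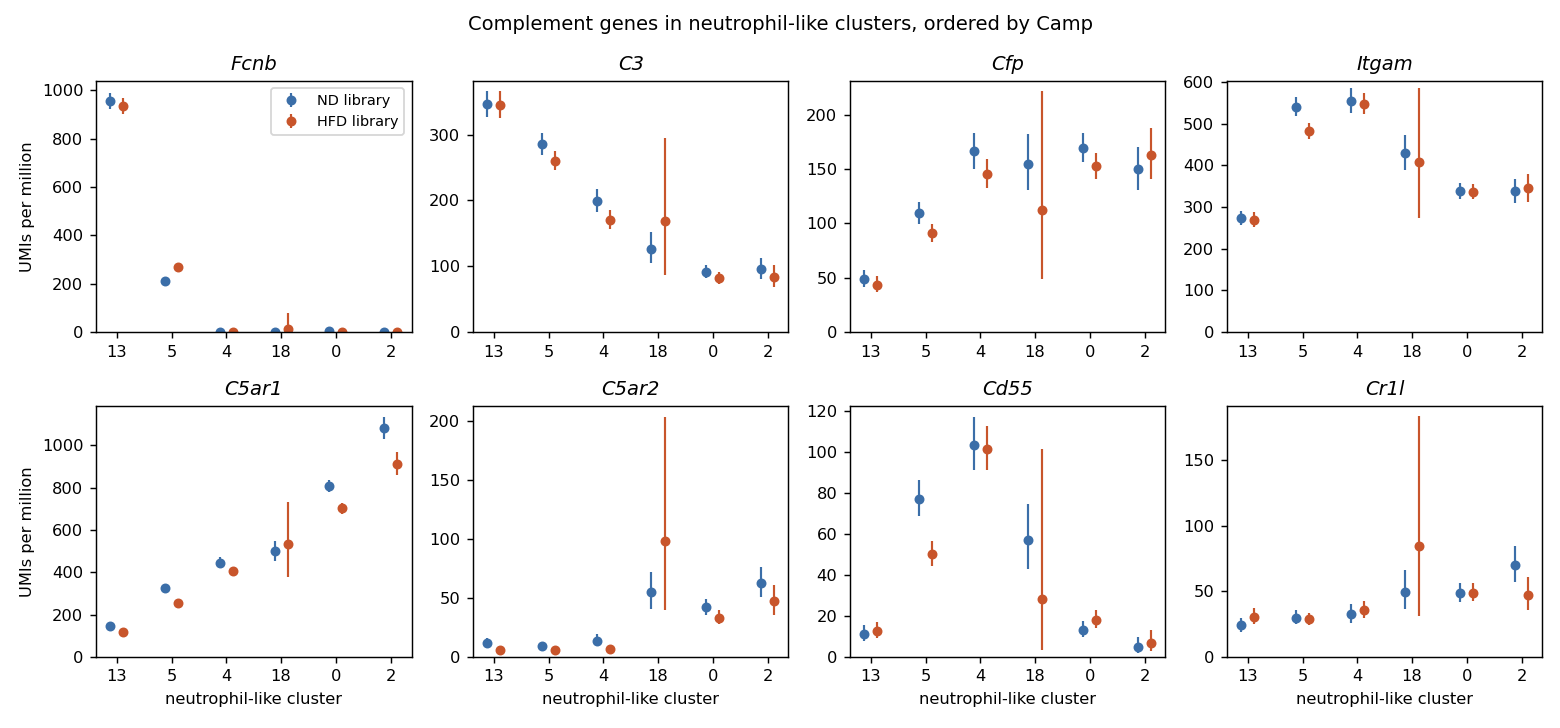
Level (UPM) of 8 complement genes in the 6 neutrophil-like clusters, ordered from the highest to the lowest Camp level, with ND and HFD as separate points and exact Poisson 95% intervals. Fcnb and C3 are highest in cluster 13 and C5ar1 is highest in cluster 2 in both libraries, while C5ar2 is higher in the last 3 clusters than in the first 3.

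A further list of 31 complement genes gives the setting. At least 50 UMIs were found for 13 of them. Itgb2, the beta chain shared by the receptors of Itgam and Itgax, was highest in neutrophil-like cells at 341. Mbl1, Mbl2 and C8b had no UMI in the kept cells, and Hc, which encodes C5, had 8. In macrophage-like cells 1 of 5 compared was called higher (background 5.77%), Cd93 (33.0 UPM in ND and 55.7 in HFD), and in endothelial-like cells 1 of 4 (5.92%), C1qbp (43.3 and 68.1). In monocyte-like cells 1 of 7 was called lower (4.2%), Thbd, which encodes thrombomodulin (68.1 and 44.0). In mesenchymal-like cells 2 of 12 were called lower (4.01%), Itgb2 (27.0 and 13.3) and Cd93 (6.48 and 3.30), beside the neutrophil marker sums given above.

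For each member the one with the most similar layout across the 28 clusters was found by the Spearman correlation of cluster levels over both libraries, which share depth and free RNA. C1qa was most like C1qc (0.86), C5ar1 most like Itgam (0.87), C1ra most like Serping1 (0.80) and C7 most like Vtn (0.77). C7 and Vtn were both at 0 in most clusters, so the value for this pair rests largely on ties. Their highest levels lay in different clusters. C7 was at 83.83 UPM in mesenchymal-like cluster 3 and 1.14 in pericyte/smooth muscle-like cluster 26, whereas Vtn was at 12.02 and 65.98. Most Vtn UMIs in cluster 26 came from the same HFD cell, as given above. In unnamed cluster 10 Vtn was at 49.08 and C7 at 2.52. Fcnb was most like C3 (0.69). Cd55 had no close partner, its nearest member being Cr2 at 0.47. Members that act together were not always alike, with 0.21 for C1qa and C1ra, 0.34 for C4b and C2 and 0.25 for C3 and Cfb.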

How the data were processed

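Single-cell suspensions of mouse periosteum were measured by droplet RNA sequencing of transcript 3-prime ends. The deposited values are raw UMI counts per gene and cell, made by the authors with Cell Ranger (version 6.0.1, mm10, per the submitters' processing notes), as 1 matrix per diet with the mice of a diet pooled. Counts were used as deposited. Barcodes were kept with over 500 and under 8000 genes and under 20% mitochondrial UMIs. Clusters came from Seurat 5.3.0 with sctransform 0.4.2 in R 4.3.3 (3000 variable genes less 31 complement genes, 30 principal components, cell cycle scores regressed, Louvain resolution 0.5, and 0.2 within mesenchymal-like cells). A cluster was named where at least 3 fixed markers were enriched, and stayed unnamed where another class led its 10 top genes. A tie among the top genes also left a cluster unnamed at low depth, as in cluster 10. In mesenchymal-like subclusters a tie with a class other than mesenchymal did so too, as in subcluster 3. Doublet scores came from Scrublet in scanpy 1.11.5. Its automatic threshold marked under 0.5% of cells and was taken as not having worked, so cells were kept and the 5% with the highest score (301 ND, 311 HFD) left out as an alternative.

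UMIs were summed per class and diet and divided by all UMIs of the class. Log2 ratios had 0.5 added to each count and in the main setting needed 50 UMIs over both libraries. Under other settings some ratios are given for fewer UMIs. Intervals are exact at 95% (Poisson, Clopper-Pearson or conditional binomial) and cover counting error only. Calls are ratios past 1.5-fold. With 1 library per diet no test was possible. The ratios and their intervals were checked on simulated class totals with Poisson noise. That check covers neither the summing over cells nor the spread between cells. Free RNA was not removed, which can place UMIs of abundant genes in any class. Named genes were all members with at least 50 UMIs, in their highest class and in classes with at least 10% of their UMIs, and ratios past the limit; those below were given by their totals. Cells were also thinned to 1000 UMIs, leaving out 55 ND and 51 HFD cells. End sequence shared between genes was read from GRCm38 transcripts in 50-base stretches of the last 400 bases. The members and lists were chosen with earlier results of these data known. Python 3.11.15, numpy 2.4.6, scipy 1.17.1 and pandas 2.3.3 were used. 1 gene of the further complement list is not reported here.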

Additional observations from a re-analysis of the deposited data

Results flagged for a closer look

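Itgam differed between the libraries in opposite directions in 2 classes. Its log2 ratio of HFD over ND was -0.91 in mesenchymal-like cells (25.1 UPM in ND, 13.3 in HFD) and 0.89 in NK cell-like cells (70.3 and 131). Each diet is 1 library, so the difference between the classes was not tested. The summed level of the 10 neutrophil markers, a class rich in Itgam, was 19521 and 9145 in mesenchymal-like cells and 2369 and 4260 in NK cell-like cells, and its part in these ratios was not tested. Without the 5% of cells with the highest doublet score the mesenchymal ratio was 0.069.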

How the results depend on the processing

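No paired analysis was possible because each diet is 1 pooled matrix and its columns carry no mouse numbers. For the same reason no leave-one-out value exists. Of the ratios recomputed under other settings, 487 were counted as the same, 57 as moved beyond the counting interval and 9 as reversed. Reversals were counted only for ratios past the limit in the main setting. Some ratios within the limit changed sign too and are not among the 9. In macrophage-like cells C1qb and C5ar1 kept their sign in 15 of 18 settings each, and C1qc in 17. In mesenchymal-like cells C1s1 kept its sign in 19 of 20. C7 in mesenchymal-like cells and Vsig4 in macrophage-like cells kept their direction and stayed past the 1.5-fold limit in every setting run. The same held for C1qc in mesenchymal-like cells (20 settings), C1qb in monocyte-like cells (18) and Colec12 in neutrophil-like cells (19). In mesenchymal-like and monocyte-like cells most ND C1q UMIs came from few cells, as given above. A ratio carried by few cells can therefore pass every setting. Depth limits the classes with few cells and the members under 50 UMIs.

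The counts of members past the limit were 11 in mesenchymal-like, 2 in endothelial-like, 1 in macrophage-like, 2 in monocyte-like and 4 in neutrophil-like cells. The share of all genes called is given for this main setting only. Counts under other settings have no such background beside them. They show how the calls moved, not whether members were called more often than other genes. Without the 5% highest doublet scores they were 4 (mesenchymal) and 1 (endothelial). The macrophage count was 4 at resolution 0.25, 3 at resolution 1, and 2 with every cell of the same weight. With immediate-early genes left out of clustering it was 4, with 1 for monocyte and 7 for neutrophil. Thinned to 1000 UMIs, the counts were 2 for mesenchymal, 0 for endothelial, 2 for macrophage, 0 for monocyte and 0 for neutrophil. At 20 UMIs per gene they were 4 for endothelial, 2 for macrophage, 5 for monocyte and 8 for neutrophil. At 200 UMIs they were 4 for mesenchymal, 1 for endothelial, 0 for monocyte and 2 for neutrophil. At 1 UMI they were 18, 20, 10, 13 and 14 for mesenchymal, endothelial, macrophage, monocyte and neutrophil. A fold limit of 2 gave 6 for mesenchymal, 1 for endothelial and 1 for neutrophil, and the lower limit tried gave 5 for macrophage. More or fewer genes were counted in the UMI and fold settings by construction, and fewer mesenchymal members (17 in place of 23) had enough UMIs without the highest doublet scores. For the others the cause was not tested.

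Reversed in mesenchymal-like cells without the highest doublet scores were Fcnb (0.46), Itgam (0.069) and Vsig4 (0.54). Vsig4 there also reversed with every cell of the same weight (0.35) and with the top cell left out (1.04). Most of its 58 mesenchymal UMIs lay in 1 cell per library (30 in ND and 23 in HFD). The values of 0.54 and 1.04 therefore rest on few UMIs. On thinned cells the reversed ratios were C1qb (0.15) and Fcnb (2.47) in mesenchymal-like and C1ra (-0.26) and Serping1 (-0.21) in neutrophil-like cells.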

Other observations

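Some complement genes also differed between clusters within leukocyte classes. In B cell-like cells Cr2 was at 24.3 UPM in ND and 15.3 in HFD in cluster 1, 55.1 and 46.3 in cluster 6, 1.35 and 2.01 in cluster 8 and 128 and 146 in cluster 20. Cd55 followed that order, from 119 and 150 in cluster 8 to 784 and 726 in cluster 20. In monocyte-like cells Cfp was at 256 and 268 UPM in cluster 7 and 134 and 108 in cluster 22, and C3 at 267 and 231 against 156 and 124. Itgam had opposite orders in the libraries there, at 118 in cluster 7 and 170 in cluster 22 in ND but 157 and 102 in HFD. C5ar1 was at 45.2 and 38.9 in ND, where the intervals overlap (38.5 to 52.7 and 28.6 to 51.8). In HFD it was at 37.9 and 111, the latter resting on 35 UMIs in 8 of 36 cells, with 31.4% from 1 cell. In neutrophil-like cells Cd55 was highest between the ends of the Camp order, at 103 and 101 in cluster 4, against 11.2 and 12.7 in cluster 13 and 4.58 and 6.62 in cluster 2.

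In osteoblast-like cells C3 gave 37 UMIs in ND and 4 in HFD, a count below the 50 UMIs asked of a ratio, and Cfb 7 and 0. Clusters were drawn from these libraries, so all these values are descriptions without a test.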
